A study of Saccharomyces cerevisiae with 5 samples.

Results

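Glycogen is the branched glucose polymer that budding yeast stores in the cytosol. The 10 genes described here encode the enzymes that start, extend, branch and break down that polymer, and the subunits that bring protein phosphatase 1 to glycogen synthase. They were taken by name (GLG1, GLG2, GSY1, GSY2, GLC3, GPH1, GDB1, GAC1, PIG1 and PIG2), and each had 1 probe set of its own, among 5656 genes with a single-gene probe set. All 10 passed the filter on dim genes and are among the 4242 genes tested. PIG2 passed only because the filter also counts the mutant arrays.

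The arrays hold poly(A) RNA of Saccharomyces cerevisiae BY4741, a haploid MATa laboratory strain, and of an isogenic Δrsf2 strain. RSF2 (YJR127C, also called ZMS1) encodes a zinc-finger protein, and the comparison asks which transcripts depend on it during respiratory growth. Both strains were cultured in 50 ml of YPG, a rich medium with glycerol as the carbon source, and harvested at an A600 of 0.6. The treatment text in the labels also describes washing dextrose-grown cells and moving them to YPG for some minutes, which neither the titles nor the design text assign to these samples, so it was not used. There were 3 wild-type and 2 Δrsf2 biological replicates with 1 array each, and both strains share the deletions of HIS3, LEU2, MET17 and URA3 that BY4741 carries.

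Synthesis begins when a glycogenin attaches glucose to itself, and glycogen synthase then lengthens the chain from UDP-glucose. A branching enzyme adds side chains, and a phosphorylase and a debranching enzyme take the polymer apart. Glycogen synthase is active when dephosphorylated, so the phosphatase subunits favour storage. In yeast the polymer builds up as sugar runs low or cells meet stress, and protein kinase A holds the genes of this pathway down while glucose is plentiful.

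Signals are MAS5 intensities in arbitrary units, rescaled so that every array has the same trimmed mean, and log2 differences are Δrsf2 minus wild type. Probe sets differ in how well they bind, so levels are compared between arrays and never between genes. In RNA of whole cultures, more transcript per cell and more cells that express the gene cannot be told apart.

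RSF2 was checked first. Its deposited signal was 203.8, 253.9 and 415.9 on the wild-type arrays and 1.9 and 3.3 on the Δrsf2 arrays, so all 5 labels match the genotype. URA3 was at the signal floor of 28.1 on all 5 arrays, while HIS3 was between 109.9 and 682 and does not show the deletion. MFA1, a pheromone gene of MATa cells, was between 1350.2 and 5140.4, while of the genes of the other mating type MF(ALPHA)1 was at most 45.0 and STE3 between 80.3 and 127. MFA2, also of MATa cells, was between 1026.8 and 4249.6 in the wild type, 13184 in Δrsf2 replicate 1 and 1155 in replicate 2. STE2, another MATa gene, was between 136.8 and 180.5, not far above STE3. Several genes that should be silent stood out in Δrsf2 replicate 1: LEU2 was at 207 there and at most 30.5 elsewhere, and MET17 at 62.4 and otherwise at the floor. The sporulation genes SPS1, SPS4 and SPR3 were at 123, 182 and 90.9 there and at most 36.3, 69.1 and 35.7 elsewhere, while SPO11 was at the floor on all arrays. IME1, also a sporulation gene, went the other way. It was at 174, 307 and 497 in the wild type, 262 in Δrsf2 replicate 1 and 723 in replicate 2. The CreX spike-in control was high on wild-type replicate 1 (56025) and Δrsf2 replicate 1 (59709) and low on the other 3 arrays (2715 to 9393), and ACT1 gave 4.91 times as much signal at its 3′ end as at its 5′ end in Δrsf2 replicate 1, against 1.55 to 2.76 times elsewhere. The mutant arrays thus differ from each other in these controls, and the glycogen genes are shown on each of them separately.

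The glycogen genes did not share one direction in the Δrsf2 strain, and the mutant arrays disagreed. In Δrsf2 replicate 2, 9 of 10 genes were above every wild-type array, led by GAC1 (3.86-fold over the wild-type geometric mean), PIG2 (3.48-fold), GDB1 (2.98-fold) and GLC3 (2.69-fold). In Δrsf2 replicate 1, 4 genes were below every wild-type array (GSY1, GSY2, GLC3 and GDB1), 5 were inside the wild-type range and only PIG2 was above it. GSY1 and GDB1 were below by little. Over all genes tested, replicate 2 lay above every wild-type array for 28.4%, and replicate 1 lay below every one for 30.3% and above every one for 24.8%. The counts for replicate 1 are not far from this background, and the count for replicate 2 is over it. In replicate 2, 6 of the 10 genes were also at least 2-fold over the wild-type mean, against 10.4% of all genes. The median of the 10 genes against the wild-type mean was 1.03 on the log2 scale in Δrsf2 replicate 2 and -0.29 in replicate 1, while the wild-type arrays spanned -0.36 to 0.24.

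None of the 10 genes passed the test over both mutant arrays. Limma (Benjamini-Hochberg over 4242 genes) gave each of them an adjusted p of 1, and every 95% interval of a log2 difference included 0. It called 0% of all genes (0 of 4242), of which 137 (3.23%) had an unadjusted p under 0.05, none of them a glycogen gene. By value 9 of the 10 were higher, and their log2 differences had a median of 0.32. Without Δrsf2 replicate 2 only 2 of 10 were higher (median -0.29), and without wild-type replicate 1 it was 6 of 10 (0.13). Among all genes 47.7% were higher, and the median was -0.03.

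**Figure D1:**
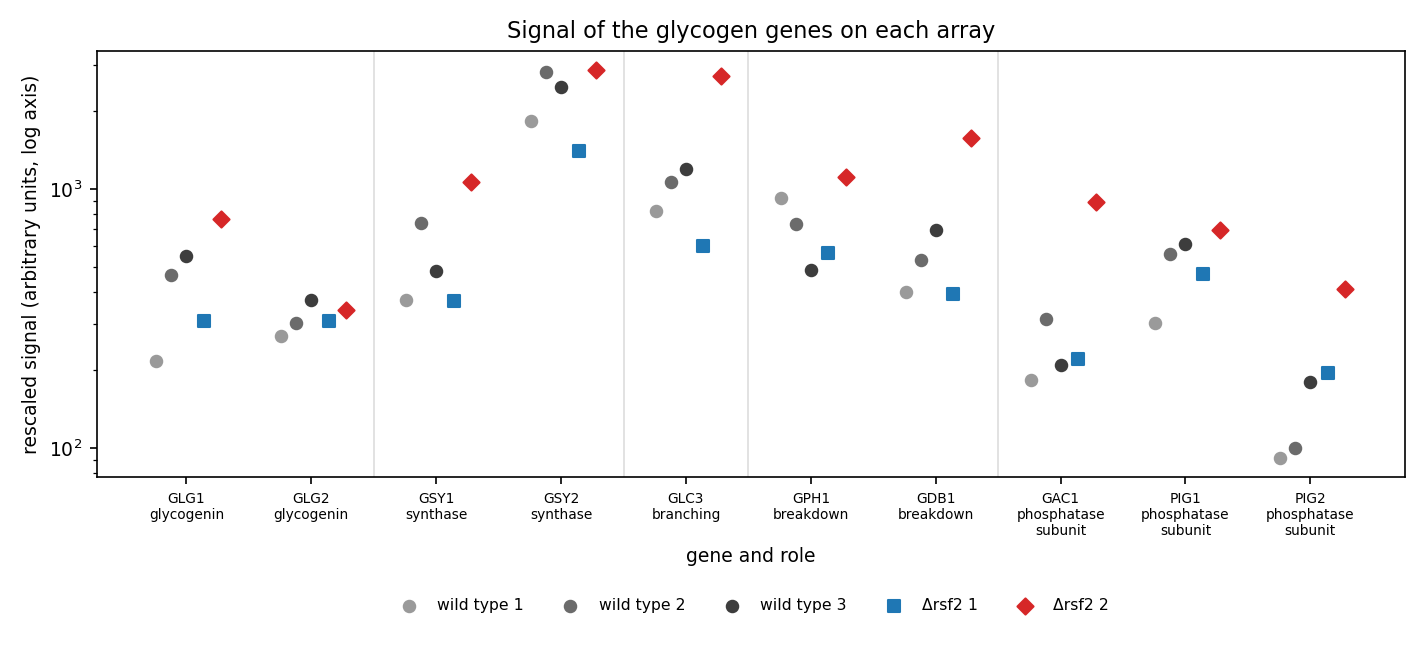
Rescaled signal of the 10 glycogen genes on each array (log axis, arbitrary units), with genes ordered by role along the x axis. Grey circles are the 3 wild-type arrays, the blue square is Δrsf2 replicate 1 and the red diamond is Δrsf2 replicate 2. The red diamond is the highest point for every gene but GLG2.

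The glycogenins GLG1 and GLG2 prime the polymer. GLG1 (YKR058W) had a signal of 216, 466 and 550.2 on the wild-type arrays, 309.6 in Δrsf2 replicate 1 and 767 in replicate 2. Replicate 1 was inside the wild-type range and replicate 2 above it, and the fitted log2 difference was 0.35 ± 0.62 (SE). GLG1 also varied most among the wild-type arrays, with an SD of 0.72 on the log2 scale.

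GLG2 (YJL137C), the paralog of GLG1, was the steadiest gene of the pathway. Its signal was 270.1, 303 and 372 on the wild-type arrays, 310.1 in Δrsf2 replicate 1 and 341 in replicate 2. Both mutant arrays lay inside the wild-type range, and the log2 difference was 0.06 ± 0.54 (SE) with a 95% interval of -1.12 to 1.24. That interval is wide, so the arrays do not show that GLG2 was unaffected. The log2 ratio of GLG1 to GLG2, set to a wild-type mean of 0, was 0.88 in Δrsf2 replicate 2 and -0.29 in replicate 1, against -0.61 to 0.33 in the wild type.

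The glycogen synthases GSY1 and GSY2 lengthen the chains, and GSY2 is the main form as cells approach stationary phase. GSY1 (YFR015C) had a signal of 374, 739 and 483 in the wild type, 369 in Δrsf2 replicate 1 and 1063 in replicate 2. Replicate 1 was just under the lowest wild-type array and replicate 2 was 2.88-fold above replicate 1. The fitted log2 difference was 0.29 ± 0.57 (SE).

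GSY2 (YLR258W) had a signal of 1822, 2819.9 and 2464 in the wild type, 1399.7 in Δrsf2 replicate 1 and 2869.7 in replicate 2. The second mutant array barely passed the highest wild-type array, and the first was clearly under the lowest, at 0.601 of the wild-type geometric mean. GSY2 was the only gene of the 10 with a negative log2 difference, at -0.22 ± 0.49 (SE). The log2 ratio of GSY1 to GSY2, again against the wild-type mean, was 0.27 in Δrsf2 replicate 1, 0.75 in replicate 2 and -0.16 to 0.26 in the wild type. Both mutant arrays were above the wild-type range, replicate 1 only just, and this ratio was not tested.

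GLC3 (YEL011W), the branching enzyme, showed the widest gap between the mutant arrays. Its signal was 824, 1061 and 1188 in the wild type, 603 in Δrsf2 replicate 1 and 2727 in replicate 2, a 4.52-fold difference within 1 genotype. The wild-type arrays were close together, with an SD of 0.27 on the log2 scale, and the mutant arrays lay on either side of all 3. The fitted log2 difference of 0.34 ± 0.59 (SE) is therefore a mean of values that point in opposite directions.

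Breakdown is carried out by GPH1, the phosphorylase that releases glucose 1-phosphate, and GDB1, the debranching enzyme. GDB1 (YPR184W) had a signal of 399, 534 and 691 in the wild type, 394.5 in Δrsf2 replicate 1 and 1573 in replicate 2. It resembled GLC3: replicate 2 was far above the wild type, replicate 1 at its lower edge, and the log2 difference was 0.58 ± 0.60 (SE). The log2 ratio of GLC3 to GDB1 moved little over the 5 arrays, from -0.33 to 0.11 against the wild-type mean.

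GPH1 (YPR160W) had a signal of 926, 732 and 484 in the wild type, 568 in Δrsf2 replicate 1 and 1108 in replicate 2. It was the only gene of the 10 whose highest wild-type signal was on wild-type replicate 1. That array gave the lowest wild-type signal for the other 9 genes, and for 64.5% of all genes tested. The log2 difference of GPH1 was 0.20 ± 0.50 (SE), with replicate 1 inside the wild-type range.

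GAC1, PIG1 and PIG2 encode subunits that direct the phosphatase Glc7 to glycogen synthase, and 2 of them, PIG2 and GAC1, had the largest fitted differences of the 10. PIG2 (YIL045W) had a signal of 91.7, 99.8 and 180.2 in the wild type, 194 in Δrsf2 replicate 1 and 411 in replicate 2. It was the only gene of the 10 without overlap between the groups, although replicate 1 exceeded wild-type replicate 3 by little. The mean wild-type signal of PIG2, 124, was under the filter signal of 129, so it was tested only through its signal on the mutant arrays. The log2 difference was 1.26 ± 0.61 (SE), with a 95% interval of -0.08 to 2.60 and an unadjusted limma p of 0.0637. Over all genes tested, 6.74% were higher without overlap and 1.77% were also at least 2-fold higher, and PIG2 was the 1 glycogen gene in both counts.

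GAC1 (YOR178C) had a signal of 183, 315 and 209.98 in the wild type, 220.2 in Δrsf2 replicate 1 and 887 in replicate 2. The first mutant array was in the middle of the wild type and the second was the farthest from the wild-type mean of any glycogen gene on any array, at 1.95 on the log2 scale. Its fitted difference was 0.95 ± 0.68 (SE). PIG1 (YLR273C), related to GAC1, had a signal of 305, 559 and 610.5 on the wild-type arrays, 471 in Δrsf2 replicate 1 and 692 in replicate 2. It was inside the wild-type range in the first and just above it in the second, with a log2 difference of 0.28 ± 0.52 (SE).

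**Figure D2:**
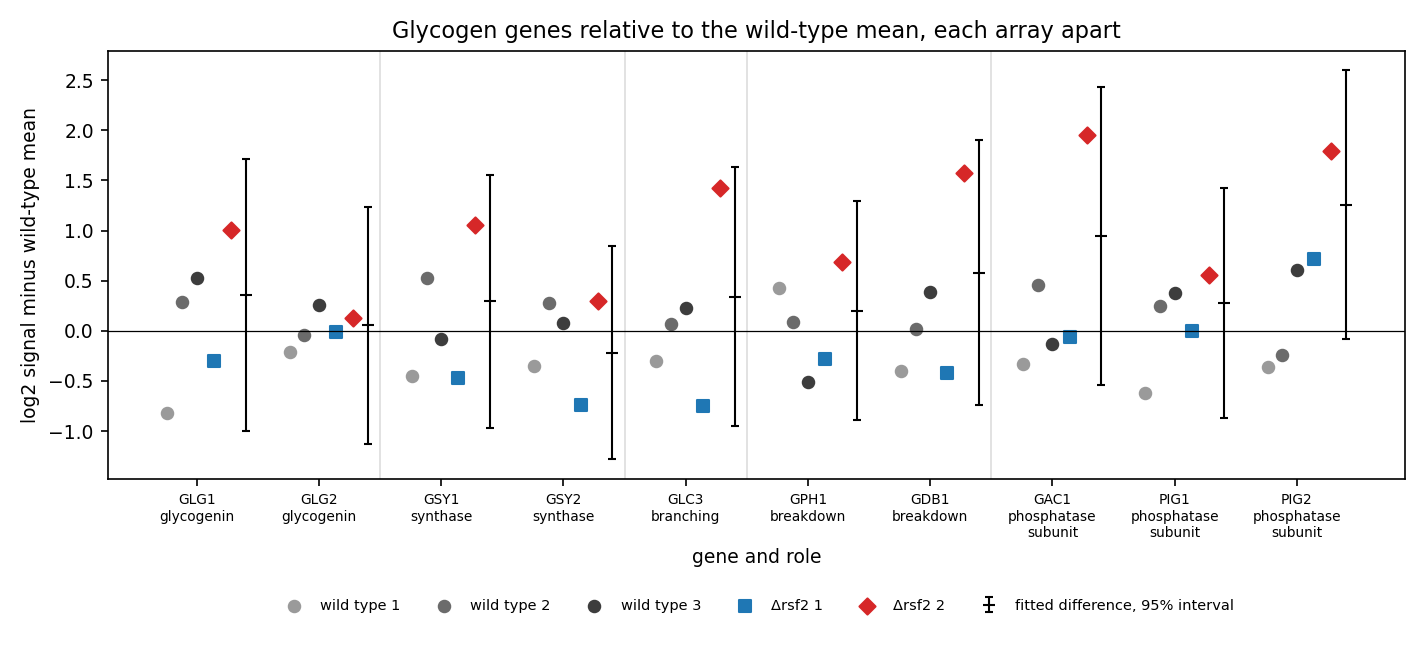
Log2 signal of each glycogen gene on each array minus the mean of the 3 wild-type arrays, with symbols as labelled. Black bars give the fitted difference between the strains with its 95% interval from limma, and all 10 intervals include 0. The mutant arrays lie on either side of the wild type for GSY1, GSY2, GLC3 and GDB1.

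Set against each other, the mutant arrays differed in one direction for the whole pathway. All 10 genes were higher in Δrsf2 replicate 2 than in replicate 1, by 1.10-fold (GLG2) to 4.52-fold (GLC3), and 7 were at least 2-fold higher. Over all genes tested, 54.9% were higher in replicate 2 than in replicate 1. At least 2-fold higher were 22.6% in replicate 2 and 17% in replicate 1. For 4 of the 10 genes replicate 1 was below and replicate 2 above every wild-type array, a pattern found in 9.69% of all genes. Of these, GSY1, GSY2 and GDB1 passed the wild-type range only just on 1 side. The CreX and ACT1 values given above also separate these arrays, and their part in the difference was not tested.

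**Figure D3:**
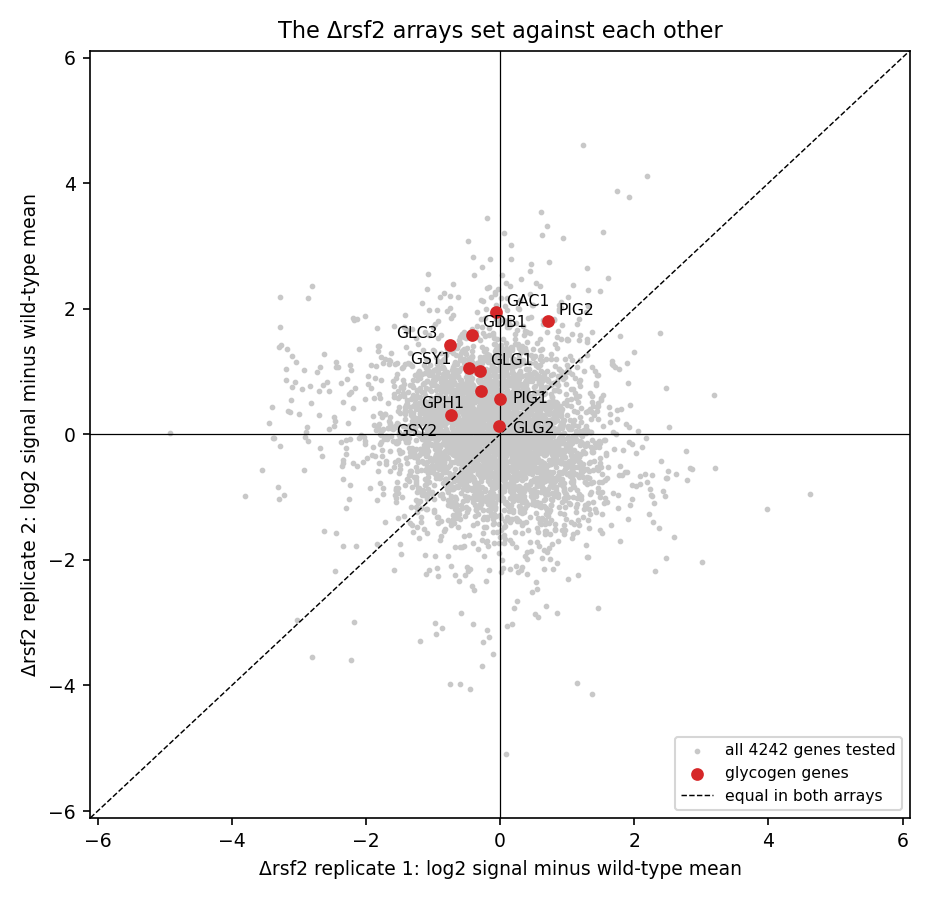
Each point is 1 of the 4242 genes tested, placed by its log2 signal minus the wild-type mean in Δrsf2 replicate 1 (x axis) and in Δrsf2 replicate 2 (y axis). The 10 glycogen genes (red) all lie above the dashed line of equal values, and 8 of them are left of 0 on the x axis. Of all genes tested, 54.9% lie above that line and 54.7% are left of 0.

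With only 1 mutant array in the fit the size of the differences changed but no glycogen gene was called. Against Δrsf2 replicate 2 alone, GLC3 had a log2 difference of 1.43 ± 0.47 (SE) with a limma adjusted p of 0.185. GDB1 had 1.57 ± 0.54 with an adjusted p of 0.218 from the same limma fit, and GAC1 and PIG2 each had 0.306. That fit called 0.448% of genes as higher and 0.802% as lower. Against Δrsf2 replicate 1 alone, limma adjusted p-values of the 10 genes ran from 0.669 (GLC3, at -0.75) to 1, and 0.236% and 1.16% of all genes were called higher and lower. In these fits the lone mutant array is assumed to vary like the wild type.

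The arrays also fall into a set of high spike-in signal (wild-type replicate 1 and Δrsf2 replicate 1) and a set of low signal, which are treated as batches defined from the control probe sets. The labels name no batch, and the cut was a CreX signal of 20000. The low set was not uniform, with CreX at 9393 on wild-type replicate 2, 3417 on wild-type replicate 3 and 2715 on Δrsf2 replicate 2. Within the high set the median log2 difference of the glycogen genes was 0.09 with 5 of 10 higher. Of all genes 60.2% were higher there, with a median of 0.21. Within the low set the glycogen median was 0.86 with 10 of 10 higher. Of all genes 44.2% were higher there, with a median of -0.11. PIG2 was higher in both sets, at 1.08 and 1.61, and GAC1 at 0.27 and 1.79. PIG2 had passed the filter only through its signal on the mutant arrays. GLC3 was at -0.45 in the high set and 1.28 in the low set, and GPH1 at -0.71 and 0.90. Each set holds 1 mutant array, and these within-set values were not tested. In a fit over all 5 arrays that blocked on this set, the median log2 difference of the 10 was 0.50, and PIG2 was at 1.39 with a limma adjusted p of 0.713, the lowest of the 10.

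The glucose for glycogen comes through glucose 6-phosphate, glucose 1-phosphate and UDP-glucose, and 7 genes of this supply were tested. Over both mutant arrays 6 of the 7 were lower by value, against 52.3% of all genes tested. Their log2 differences had a median of -0.27, and none passed the limma test. The mutant arrays again differed, with a median against the wild-type mean of -0.76 in Δrsf2 replicate 1 and 0.23 in replicate 2. In replicate 2, 5 of the 7 were above that mean, against 51.2% of all genes tested. HXK2, the hexokinase of fermenting cells, had a signal of 1800.5, 1883.8 and 2329 on the wild-type arrays, 933 in Δrsf2 replicate 1 and 868 in replicate 2. Its groups did not overlap, and the log2 difference was -1.15 ± 0.42 (SE). PGM1, the minor phosphoglucomutase, was at -0.93 ± 0.50 (SE), also without overlap, where 8.25% of all genes were lower without overlap and 2.73% at least 2-fold lower. PRM15, also listed as PGM3, was at 0.74 ± 0.67. UGP1, which makes UDP-glucose and was singled out after its values were seen, was split like GLC3: the wild-type arrays ran from 1552 to 2487, Δrsf2 replicate 1 was at 705 and replicate 2 at 4085.

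Among 16 tested genes listed as regulators of the glycogen enzymes, SGA1 included, 7 were higher and 9 lower by value. Their log2 differences had a median of -0.0025, and no gene passed the limma test. Against the wild-type mean their median was -0.08 on the first mutant array and 0.35 on the second. SGA1, a glucoamylase that degrades glycogen during sporulation, had a signal of 308, 170.4 and 362 in the wild type, 442 in Δrsf2 replicate 1 and 1796 in replicate 2. It was the 1 gene of this list that was higher without overlap, with a log2 difference of 1.74 ± 0.66 (SE). SGA1 is itself a breakdown enzyme, so no tested regulator proper was higher without overlap. SIP2, named after its values were seen, was the 1 that was lower without overlap, at -0.40 ± 0.42. Over all genes tested, 6.74% were higher and 8.25% lower without overlap. GIP2, a relative of PIG2 that binds the same phosphatase, was at 1.00 ± 0.83, with 803 in Δrsf2 replicate 2 and 185 in replicate 1. PCL10, a cyclin of the Pho85 kinase that acts on Gsy2, was at 0.64 ± 0.55. SIP1 was below the signal filter.

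Signalling through protein kinase A was represented by 12 tested genes, of which 6 were higher and 6 lower by value. Their log2 differences had a median of 0.09, and 0 of them passed the limma test. The first mutant array had a median of -0.08 against the wild-type mean, and the second 0.43. RAS1, a GTPase that activates adenylate cyclase, was at 0.87 ± 0.59 (SE), and CYR1, adenylate cyclase itself, at 0.70 ± 0.59. MSN4, a transcription factor of the general stress response, was at 0.66 ± 0.55. In this list 2 genes were higher without overlap (CYR1 and MSN4) and 2 lower: MSN2, the partner of MSN4, at -0.39 ± 0.43 and TPK3, a catalytic subunit of the kinase, at -0.35 ± 0.55, both named after their values were seen. Over all genes tested, 6.74% were higher and 8.25% lower without overlap. GIS1 was below the filter.

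Trehalose, the other storage carbohydrate of yeast, is made and degraded by 7 genes that gave values close to those of the glycogen genes. All 7 were higher by value, TPS3 by only 0.00098, against 47.7% of all genes tested. Their log2 differences had a median of 0.33. Set apart, the mutant arrays gave medians of -0.41 (replicate 1) and 1.19 (replicate 2) against the wild-type mean. All 7 genes were below that mean in replicate 1 and above it in replicate 2, against 54.7% and 51.2% of all genes tested. TSL1, a subunit of the trehalose synthase complex, was at 0.46 ± 0.56 (SE), ATH1, the acid trehalase, at 0.38 ± 0.59 and TPS1, trehalose 6-phosphate synthase, at 0.38 ± 0.62. None passed the limma test. Δrsf2 replicate 2 was above every wild-type array for 6 of the 7, against 28.4% of all genes tested.

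General stress genes are often grouped with glycogen genes, and 18 of 20 were higher by value here, against 47.7% of all genes tested. Their log2 differences had a median of 0.65, and none passed the limma test. The arrays were ordered differently for this list: against the wild-type mean, its median was 0.74 on wild-type replicate 1, 0.46 on the first mutant array and 0.71 on the second. The mutant arrays split the list: 9 of the 20 genes were at least 2-fold higher in replicate 2 than in replicate 1, and 6 at least 2-fold lower. Over all genes tested, 22.6% were at least 2-fold higher in replicate 2 and 17% in replicate 1. The chaperone gene SSA4 was at 2.00 ± 0.58 (SE) and was higher on both mutant arrays than on any wild-type array. It was the 1 gene of the 20 that was higher without overlap, against 6.74% of all genes. ALD3, an aldehyde dehydrogenase, at 2.01 ± 0.71 and the chaperone gene SSA3 at 1.97 ± 0.75 overlapped. Wild-type replicate 1 was thus high for the stress list, while the glycogen median on it, -0.36, was near the median of -0.33 for all genes. ACT1 and ADH2, bright genes outside the list, were also higher on wild-type replicate 1 (22411 and 58852) than on the other wild-type arrays (at most 8482 and 13886). They were named after their values were seen, and whether signal level plays a part was not tested.

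**Figure D4:**
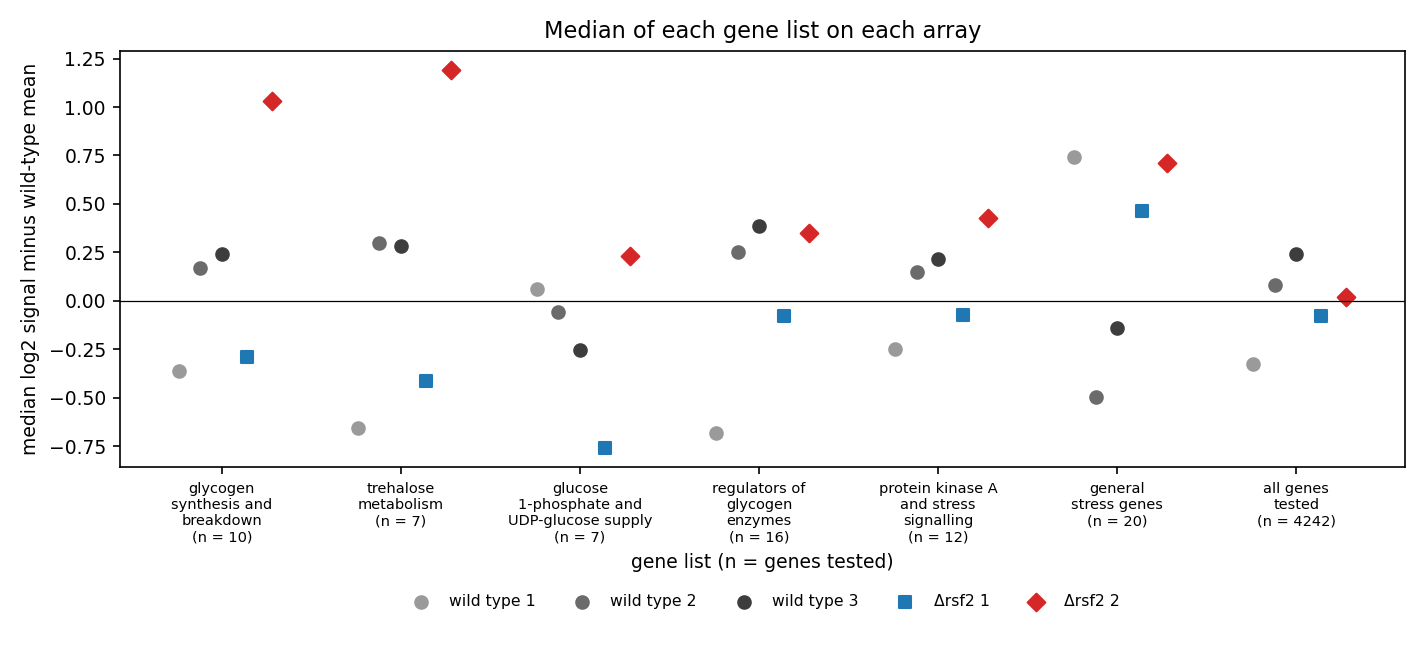
Median over each gene list of the log2 signal minus the wild-type mean, per array, with the number of tested genes under each list. Δrsf2 replicate 2 is highest for the glycogen (1.03), trehalose (1.19), glucose supply (0.23) and protein kinase A (0.43) lists. Δrsf2 replicate 1 is below 0 for these lists and for the listed regulators (-0.08). The medians of all genes stay between -0.33 and 0.24.

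By root mean square distance over the 5 arrays, after each gene was set to its own mean, the genes closest to the mean profile of the 10 were HAL9 (0.0775 on the log2 scale), CMG1 (0.0949), EMC4 (0.0965), NST1 (0.106) and DBP6 (0.118). HAL9, which encodes a zinc-finger protein, had a signal of 263, 374 and 427 in the wild type, 316 in Δrsf2 replicate 1 and 712 in replicate 2. DBP6, an RNA helicase of ribosome assembly, ran from 203 to 342 in the wild type, with 265 and 526 in Δrsf2. The median distance over all genes tested was 0.619. The glycogen genes themselves ranked from 102 (GSY1, 0.226) to 1316 (PIG2, 0.499) of 4242, so other genes lay closer to the mean profile than any of the 10 did.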

How the data were processed

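The authors deposited linear signal intensities, 1 for each probe set on each array. Per the submitters' processing notes these come from MAS5, whose version and settings are not given in the sources used here. Their 2% trimmed means were 500.3 to 500.7 on 4 arrays and 100.1 on Δrsf2 replicate 1, so each array was rescaled to 500. A floor at the 10th percentile of single-gene probe sets (28.1) was set and log2 taken.

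The platform annotation pairs 6504 of 9335 probe sets with a single gene, 328 with several and 2443 with none, and 60 are controls. Names were updated by gene identifier through the table of assembly R64 (6504 matched). Coordinates are left out, since the array's genome build is not known. Where a gene had several probe sets (315 genes), the brightest on average stood for it. Genes under the 25th percentile of mean log2 signal over all 5 arrays (a signal of 129) were left out, RSF2 among them.

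Strains were compared with limma 3.58.1 in R 4.3.3 (lmFit, eBayes with trend, group as the only term), with Benjamini-Hochberg adjustment and a threshold of 0.05. The fit was tested on simulated data. Calls of 2-fold differences without overlap are a description by size. Groups and replicate numbers come from the titles, which call the samples biological replicates. The replicate numbers are not said to mark a shared culture or day, so no pairing was used. Precision is limited by how few arrays there are.

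Named genes are the 10 members, RSF2, the 3 genes of smallest p in each of 5 further lists, and the 5 genes of nearest profile. UGP1, SIP2, MSN2, TPK3, ACT1 and ADH2 were added after their values were seen. Members and lists were chosen with earlier results of these data known, so no set test was run. Lists are described by counts, medians and the values of the named genes. The promoter motif search that had been planned was not run. The alternatives were scaling, floor, filter, probe sets, variance model, blocks and single arrays left out.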

Additional observations from a re-analysis of the deposited data

How the results depend on the processing

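Over 19 alternative settings, 17 of them with a test, no glycogen gene reached an adjusted p under 0.05 by limma (lowest 0.185, GLC3 without Δrsf2 replicate 1). PIG2 kept its sign in the 18 settings that gave it a value, 16 of them with a test (0.10 to 1.80). The main filter let PIG2 in only through the mutant arrays, where it was high, so this is not separate support. The stricter filter on dim genes left PIG2 out. Without rescaling, the median of all genes was -1.19, the median of the glycogen genes was -0.84, that of Δrsf2 replicate 1 -2.61, and 0 and 1003 genes were 2-fold higher and lower. There GSY1 was at -0.87, GLC3 -0.82, GPH1 -0.96, GDB1 -0.58, GLG1 -0.81, GLG2 -1.10, GAC1 -0.22 and PIG1 -0.88, since Δrsf2 replicate 1 was deposited at a smaller scale. The 2-fold higher count was 183 without a filter and 25 with the stricter one, which test more and fewer genes. GLG2 was at -0.0045 with median centring and GSY1 at -0.088 with array weights; the cause was not tested.

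Of the genes 2-fold apart (75 higher, 116 lower) 60.7% were lower, against 71.9% with quantile normalisation and 71.6% with median centring. Lower genes were the minority without a filter (43.5%) and without wild-type replicate 3 (37.8%). The glycogen median of 0.32 was 0.14 with array weights, 0.46 with the replicate block and 0.50 when the fit blocked on spike-in sets. In the high spike-in set 731 genes were 2-fold higher and 385 lower, the glycogen median and that of Δrsf2 replicate 1 were 0.092, and GSY1 was at -0.020, GLC3 -0.45, GPH1 -0.71 and GDB1 -0.016. In the low set the counts were 328 and 531, the median 0.86 and GSY2 0.12. These sets hold fewer arrays.

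With the replicate number as a block, limma called 2 genes and GPH1 was at -0.054. Deviations of same-numbered arrays correlated at 0.27 (number 1) and -0.09 (number 2) across genes. With 2 mutant arrays these values are not independent, and arrays numbered 1 also share the high spike-in signal, so they do not settle whether the numbers pair the arrays.

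Leaving out 1 array at a time gave 0 to 59 called genes, 74 to 443 genes 2-fold higher, 123 to 504 lower, and a glycogen median of -0.29 (without Δrsf2 replicate 2) to 1.03 (without replicate 1). Ranges were -0.47 to 1.06 for GSY1, -0.74 to 0.30 for GSY2, -0.75 to 1.43 for GLC3, -0.28 to 0.68 for GPH1, -0.42 to 1.57 for GDB1, -0.30 to 1.01 for GLG1, -0.048 to 0.18 for GLG2, -0.060 to 1.95 for GAC1 and -0.033 to 0.56 for PIG1.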
